A study of Saccharomyces cerevisiae with 16 samples.

Results

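Translation factors are the proteins that bring messenger RNA, initiator tRNA and ribosomal subunits together, move the ribosome along and release the finished chain. Cytosolic tRNA synthetases join each amino acid to its tRNA and so feed the same process. In growing yeast many of these genes are transcribed strongly, together with the ribosomal protein genes, because protein synthesis takes up much of the cell's resources. The genes described here are a fixed list of 54 symbols of both kinds, chosen by function. A named probe was on the array for 51 of them, 33 translation factors and 18 tRNA synthetases, out of 5315 named genes in all. TIF1, TEF1 and EFT1 had no named probe. Each is a near-identical copy of a gene that did have one (TIF2, TEF2 and EFT2), so the value of such a probe may come from both copies.

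The arrays measured RNA made during a short pulse in budding yeast (Saccharomyces cerevisiae), with 2 cultures in each of 8 groups. In Mot1-aa, the gene for Mot1 is fused to FRB, yEGFP and 3V5 (Mot1-FRB-yEGFP-3V5). Mot1 is an ATPase that clears the TATA-binding protein off promoters. The strain was sampled at 0, 10, 20 and 30 min after rapamycin. WT-aa, the parent without the FRB tag, was sampled at the same times. All groups share the anchor RPL13A-FKBP12, the tor1-1 allele and the deletion of FPR1 (fpr1del), which spare growth from rapamycin, as well as MET15, his3-1, leu2, lys2 and ura3. Rapamycin (7.5 µM) ties the FRB domain to the FKBP12 anchor, here a ribosomal protein, and so draws Mot1 out of the nucleus. The groups at 0 min had no rapamycin. Every culture grew in synthetic complete medium with 2% glucose and took up 4-thiouracil (5 mM) in the last 6 min, and the labelled RNA was captured and hybridised against a pool from WT-aa cultures without rapamycin, per the series' design text and the labelled treatment of that channel. Samples of culture 1 carried Cy3 and those of culture 2 carried Cy5, so dye and culture cannot be told apart. The loss of Mot1 protein from the nucleus was not measured by these arrays.

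Each value below is log2(sample/reference pool) for one gene on one array, after background correction and normalization within the array. A value of 0 is the level of the pool relative to the typical gene of that array, so a change common to all genes is not seen. The depletion effect of a gene is its change since 0 min in Mot1-aa less its change in WT-aa over the same time. It was tested with limma over all 5315 genes with Benjamini-Hochberg adjustment, and "rose" or "fell" is kept for an adjusted p under 0.05. The gene spots lay 11.6 times over background on the array from culture 1 of Mot1-aa at 0 min and 22.4 to 32.2 times on the others. All 51 genes exceeded the 99th percentile of the quality control spots in both channels on all 16 arrays, so none is left out below for a low signal. TEF2 was the brightest, and 1 of its 2 spots stood at the scanner ceiling in the sample channel for culture 2 of Mot1-aa at 0 min and of WT-aa at 10 min, and in the reference channel for culture 1 of WT-aa at 0 and at 10 min.

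**Figure D1:**
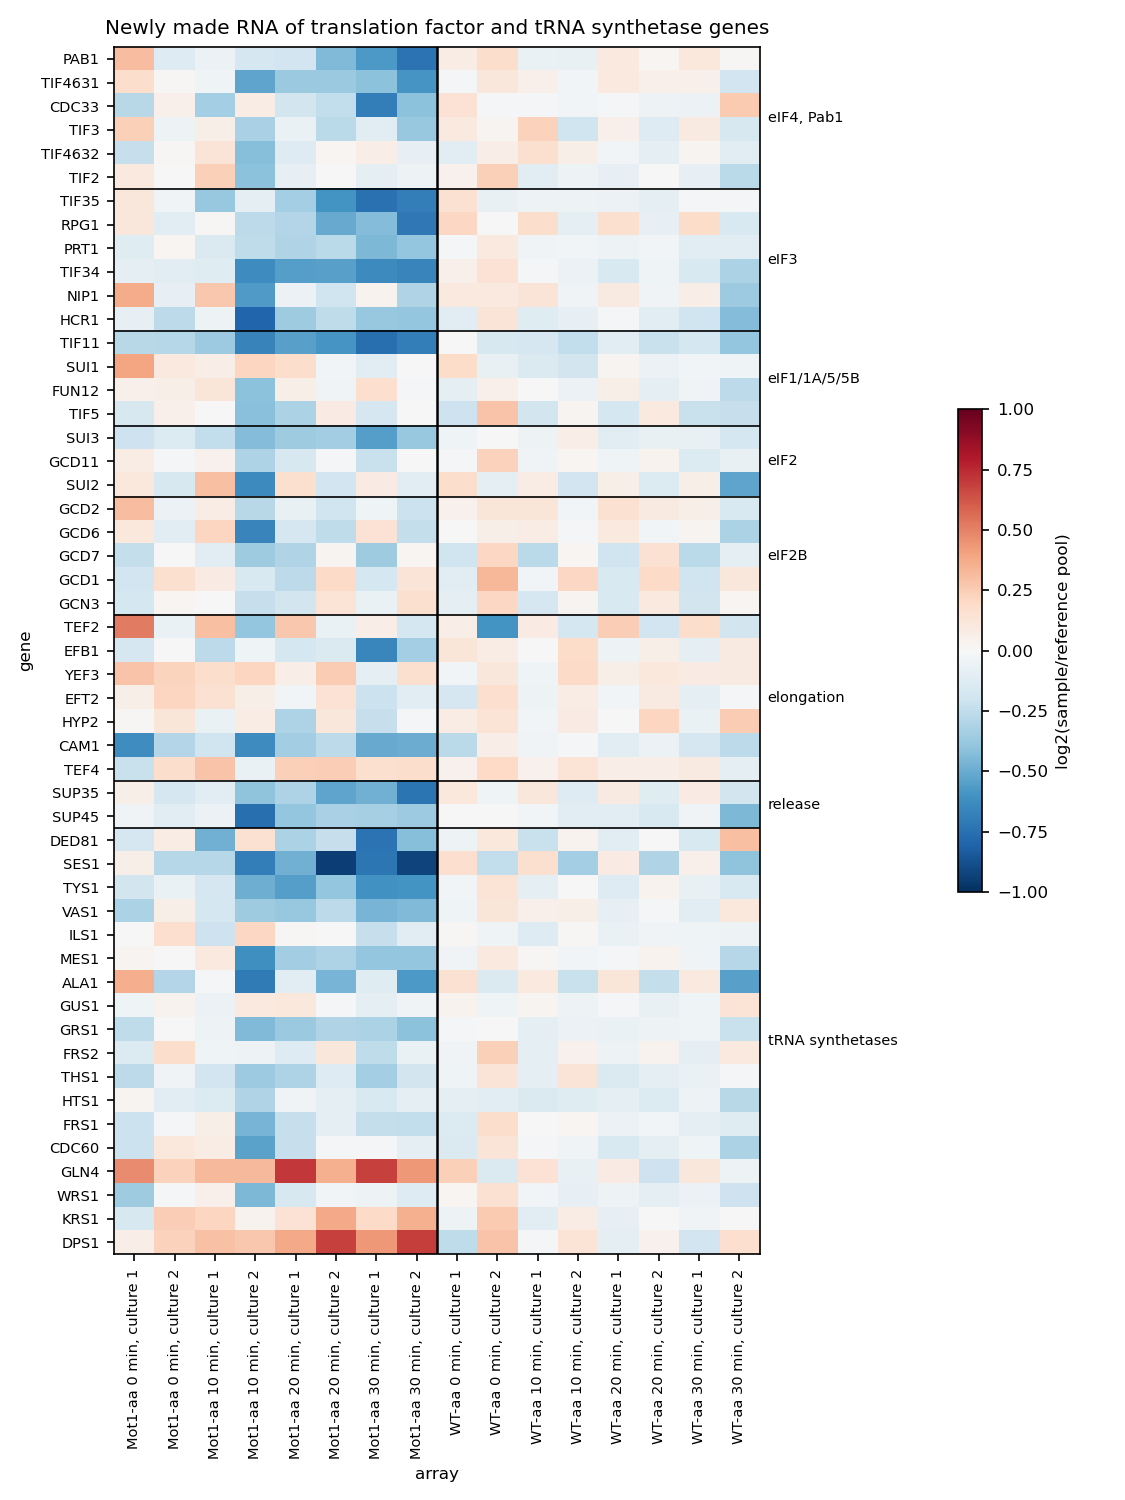
Heat map of log2(sample/reference pool) of the 51 genes (rows, grouped by role and ordered within a role by the depletion effect at 30 min) on the 16 arrays (columns, Mot1-aa left and WT-aa right, each from 0 to 30 min). Blue is below and red above the reference pool. Blue fills most rows at Mot1-aa 20 and 30 min, and also in culture 2 of Mot1-aa at 10 min. DPS1 and GLN4 are among the rows that are red at Mot1-aa 20 and 30 min, and the WT-aa columns are mostly pale.

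At 30 min 7 of the 51 genes fell by the depletion effect (13.7%) and 0 rose, where over all genes 7.51% fell and 13.6% rose. The genes that fell were TIF35, PAB1, TEF2, RPG1 and SUP35 among the factors (5 of 33) and DED81 and SES1 among the synthetases (2 of 18). Their effects lay between -0.70 and -0.47, so the change since 0 min was 1.63-fold to 1.38-fold lower in Mot1-aa than in WT-aa. For TEF2 the levels of the strains overlapped at 30 min, and their widest difference was at 0 min. In a bulk culture, fewer cells making an RNA and less of it per cell cannot be told apart. The median effect was -0.12 over the 51 genes, -0.17 over the factors and -0.09 over the synthetases, against 0.01 over all genes. The effect was negative for 33 of 51 genes (64.7%), beside 49.1% of all genes. An unadjusted p under 0.05 was reached by 13 (25.5%), a smaller share than the 35.4% of all genes. The median of the factors was -0.27 in culture 1 and -0.05 in culture 2, and that of the synthetases -0.06 and -0.0023. The difference between factors and synthetases was not tested. The count of 7 moved with single arrays: 4 genes passed when culture 1 of Mot1-aa was left out at 0 min or at 30 min, and 3 when culture 2 of WT-aa was left out at 30 min. Without either array of Mot1-aa at 10 min 11 fell and 3 rose, and over all genes 37.8% then passed. RPG1, SUP35 and SES1 passed in each of the 16 fits that left out 1 array, but not without the culture term, where 2 genes passed, TIF35 and PAB1.

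**Figure D2:**
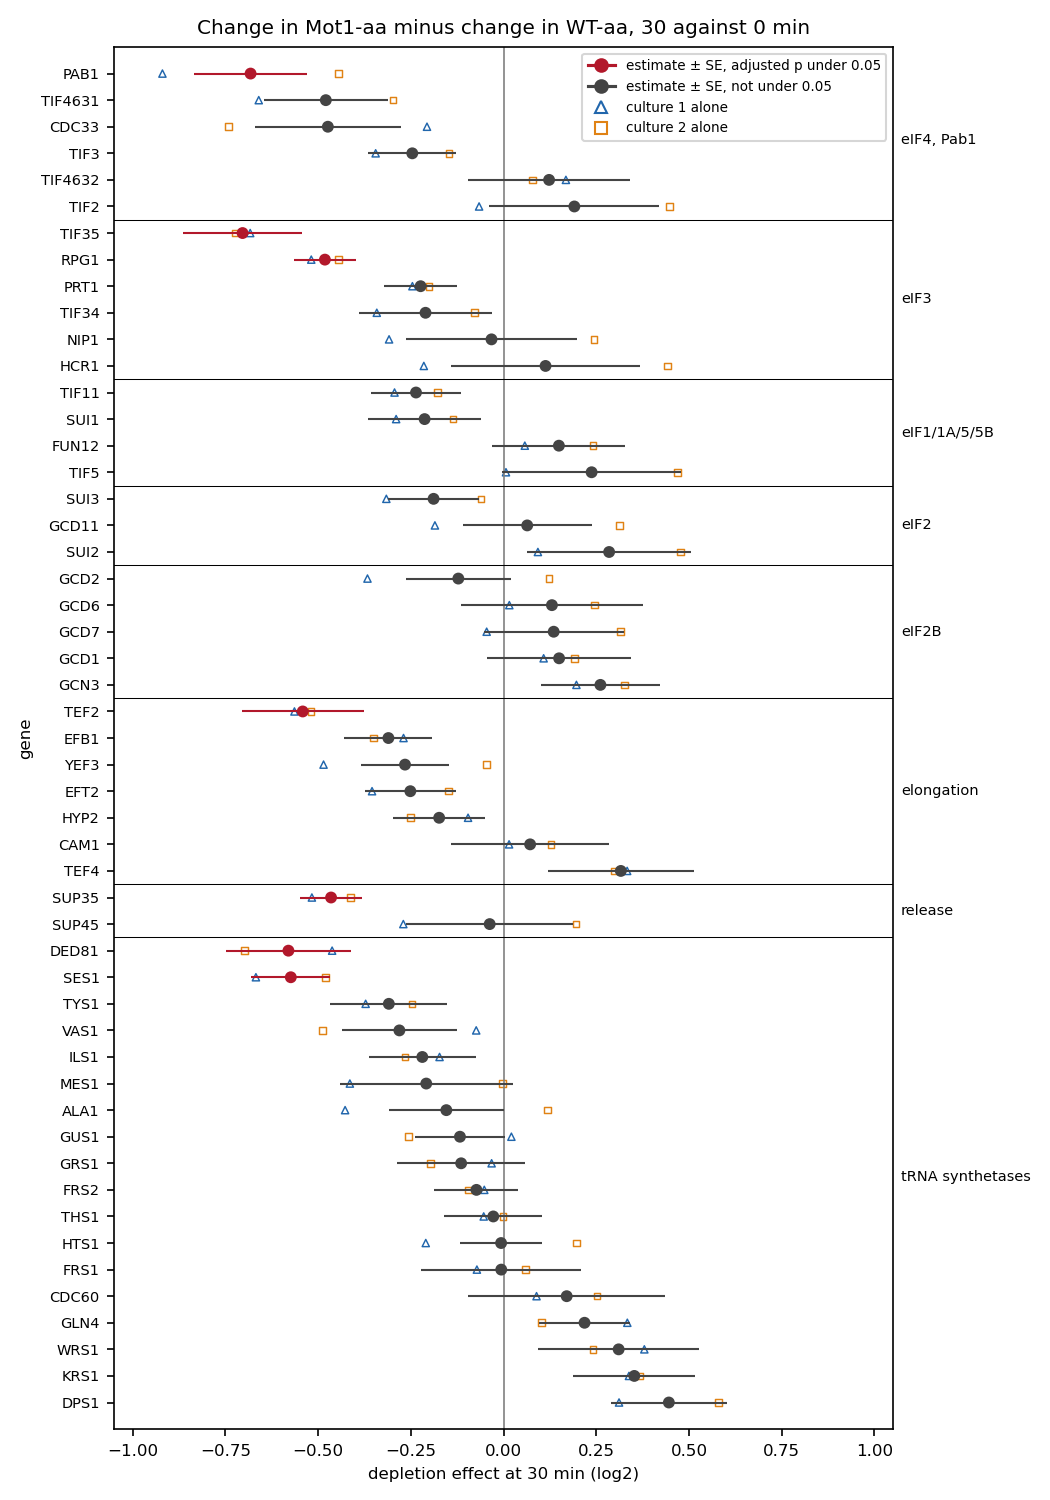
Depletion effect at 30 min (log2, horizontal axis) of the 51 genes, grouped by role. Filled circles with bars are the estimate and its SE, red where the adjusted p is under 0.05, and open triangles and squares are culture 1 and culture 2 alone. The 7 red genes lie between -0.70 and -0.47 with both cultures below 0, and the 5 eIF2B genes lie between -0.12 and 0.26.

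Initiation begins with the eIF4 factors, which act at the cap of the messenger RNA, and the poly(A)-binding protein, which binds its tail. PAB1, the poly(A)-binding protein, stood at 0.31 and -0.13 at 0 min, -0.06 and -0.17 at 10 min, -0.19 and -0.44 at 20 min and -0.58 and -0.74 at 30 min in Mot1-aa, culture 1 first and culture 2 second in each pair. The WT-aa values of PAB1 were 0.07 and 0.18 at 0 min, -0.06 and -0.07 at 10 min, 0.10 and 0.02 at 20 min and 0.11 and 0.01 at 30 min. Both Mot1-aa cultures at 30 min were below every WT-aa array, and they had parted from WT-aa by 20 min. The depletion effect of PAB1 was -0.68 ± 0.15 (SE) at 30 min, 1.60-fold lower, with an adjusted p of 0.0112, and -0.92 in culture 1 and -0.44 in culture 2. At 20 min it was -0.34 with an adjusted p of 0.24. With culture 2 of WT-aa at 30 min left out, the adjusted p at 30 min was 0.0513.

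The paralogous scaffold genes TIF4631 and TIF4632 encode both forms of eIF4G, on which the cap-binding protein and the helicase assemble. TIF4631 gave 0.17 and 0.01 at 0 min, -0.04 and -0.52 at 10 min, -0.37 and -0.37 at 20 min and -0.41 and -0.59 at 30 min in Mot1-aa. Its WT-aa values were -0.02 and 0.11 at 0 min, 0.05 and -0.03 at 10 min, 0.10 and 0.05 at 20 min and 0.05 and -0.19 at 30 min. From 20 min on, both Mot1-aa cultures lay below all WT-aa arrays. TIF4632 gave -0.23 and 0.01 at 0 min, 0.13 and -0.42 at 10 min, -0.13 and 0.02 at 20 min and 0.07 and -0.08 at 30 min in Mot1-aa. Its WT-aa values were -0.11 and 0.06 at 0 min, 0.16 and 0.06 at 10 min, -0.03 and -0.10 at 20 min and 0.02 and -0.10 at 30 min. The strains overlapped for TIF4632 at 20 and 30 min. Its sample signal was the weaker of the pair, 5.22 to 19.4 times over background, against 100 to 242 times for TIF4631. The part of signal strength in these ratios was not tested. The depletion effect at 30 min was -0.48 ± 0.17 (SE) for TIF4631 (adjusted p 0.0664) and 0.12 ± 0.22 (SE) for TIF4632 (adjusted p 0.716), and the difference between the pair was not tested. Within Mot1-aa, 30 against 0 min, TIF4631 fell by 0.59 on the log2 scale with an adjusted p of 0.00255.

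TIF2, the eIF4A helicase that unwinds leader sequences, read 0.10 and 0.01 at 0 min, 0.24 and -0.41 at 10 min, -0.08 and -0.01 at 20 min and -0.09 and -0.05 at 30 min in Mot1-aa. In WT-aa it read 0.04 and 0.24 at 0 min, -0.10 and -0.05 at 10 min, -0.08 and 0.01 at 20 min and -0.08 and -0.27 at 30 min. The groups overlapped at every time. Its effect at 30 min was 0.19, with a 95% interval of -0.32 to 0.70. CDC33, the cap-binding protein eIF4E, had an effect of -0.47 ± 0.20 (SE) and an adjusted p of 0.114, with -0.21 in culture 1 and -0.74 in culture 2. TIF3, the eIF4B cofactor of the helicase, had -0.25 ± 0.12 (SE) and an adjusted p of 0.167. In this group 1 of 6 genes fell and 4 had a negative effect, where 7.51% of all genes fell.

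eIF3 is the large complex that holds the small ribosomal subunit open for messenger RNA. RPG1, its scaffold subunit eIF3a, had 0.11 and -0.11 at 0 min, 0.01 and -0.26 at 10 min, -0.29 and -0.50 at 20 min and -0.43 and -0.71 at 30 min in Mot1-aa. In WT-aa RPG1 had 0.21 and 0.004 at 0 min, 0.18 and -0.10 at 10 min, 0.16 and -0.08 at 20 min and 0.18 and -0.16 at 30 min. Within each culture the Mot1-aa value was lower at every later time, while the WT-aa cultures moved less. The effect was -0.33 ± 0.08 (SE) at 20 min (adjusted p 0.0379) and -0.48 ± 0.08 (SE) at 30 min (adjusted p 0.00327), 1.40-fold lower, with -0.52 in culture 1 and -0.45 in culture 2. From the authors' deposited ratios the effect at 30 min was -0.33 and did not pass.

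TIF35, the RNA-binding subunit eIF3g, showed 0.11 and -0.03 at 0 min, -0.38 and -0.09 at 10 min, -0.34 and -0.59 at 20 min and -0.74 and -0.69 at 30 min in Mot1-aa. WT-aa showed 0.15 and -0.08 at 0 min, -0.05 and -0.05 at 10 min, -0.06 and -0.09 at 20 min and -0.02 and -0.01 at 30 min. Both Mot1-aa cultures lay below every WT-aa array at 20 min and later. Its effect at 30 min was the most negative among the 51 genes, -0.70 ± 0.16 (SE) with an adjusted p of 0.012, and -0.68 in culture 1 and -0.72 in culture 2. It did not pass when culture 1 of Mot1-aa was left out at 0 or at 30 min, or culture 2 of WT-aa at 30 min, with adjusted p up to 0.0576. At 20 min the effect was -0.40 with an adjusted p of 0.185.

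The other eIF3 subunits did not pass. The effect at 30 min was -0.22 for PRT1 (eIF3b), -0.21 for TIF34 (eIF3i), -0.03 for NIP1 (eIF3c) and 0.11 for HCR1 (the loosely bound eIF3j). For NIP1 and HCR1 the cultures had opposite signs, with -0.31 in culture 1 and 0.24 in culture 2 for NIP1 and -0.22 in culture 1 and 0.44 in culture 2 for HCR1. Against its own 0 min, Mot1-aa showed 4 of the 6 genes lower at 30 min (RPG1, TIF35, PRT1 and TIF34), with values between -0.76 and -0.37, where 19% of all genes were lower. HCR1 and NIP1 were at -0.21 and -0.28 in that comparison and did not pass.

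The small factors and the GTPases that place the start codon gave no call in the depletion effect at 30 min. The factor genes SUI1 (eIF1), TIF11 (eIF1A), TIF5 (eIF5) and FUN12 (eIF5B) had effects of -0.21 for SUI1, -0.24 for TIF11, 0.24 for TIF5 and 0.15 for FUN12. eIF2 carries the initiator tRNA, and its effects were 0.28 for SUI2, -0.19 for SUI3 and 0.06 for GCD11. eIF2B recharges eIF2 with GTP and takes part in the general amino acid control. Of its 5 genes 4 had positive effects, 0.26 for GCN3, 0.15 for GCD1, 0.14 for GCD7 and 0.13 for GCD6, and GCD2 had -0.12. The 95% interval of GCN3 ran from -0.09 to 0.62, and that of GCD6 from -0.41 to 0.68. Within Mot1-aa, SUI1, TIF11 and SUI3 fell at 30 min against 0 min, by 0.30, 0.44 and 0.30 on the log2 scale.

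Among the elongation factors 1 of 7 fell at 30 min, where 7.51% of all genes fell. TEF2 encodes eEF1A, which delivers charged tRNA to the ribosome and is one of the most abundant proteins of the cell. It was at 0.52 and -0.06 at 0 min, 0.30 and -0.39 at 10 min, 0.27 and -0.07 at 20 min and 0.06 and -0.18 at 30 min in Mot1-aa. In WT-aa it was at 0.07 and -0.59 at 0 min, 0.08 and -0.17 at 10 min, 0.25 and -0.19 at 20 min and 0.18 and -0.19 at 30 min. The strains overlapped at each time. The widest difference between their means was at 0 min, where culture 2 of WT-aa was the lowest of all arrays. The effect at 30 min was -0.54 ± 0.16 (SE) with an adjusted p of 0.0402, while Mot1-aa minus WT-aa was 0.49 at 0 min and -0.05 at 30 min, with adjusted p of 0.0564 and 0.747. Neither direct difference passed, nor did Mot1-aa 30 against 0 min (-0.28, adjusted p 0.0718). The depletion effect of TEF2 passed in 6 of the 16 fits that left out 1 array, and not with the authors' ratios (-0.27) or with a culture term for each strain. Among the arrays at 0 min, 1 of the 2 spots of TEF2 was at the scanner ceiling on that of Mot1-aa culture 2 (sample channel) and on that of WT-aa culture 1 (reference channel). Both enter the difference at 0 min and the depletion effect, and the part of the ceiling in these values was not tested.

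TEF4 and CAM1 are paralogues that encode eEF1Bγ, a subunit of the exchange factor of eEF1A. TEF4 was at -0.22 and 0.18 at 0 min, 0.29 and -0.07 at 10 min, 0.24 and 0.25 at 20 min and 0.16 and 0.18 at 30 min in Mot1-aa. WT-aa had 0.04 and 0.20 at 0 min, 0.05 and 0.14 at 10 min, 0.07 and 0.07 at 20 min and 0.09 and -0.10 at 30 min. The strains overlapped at 0 and 10 min, and the Mot1-aa pair was higher at 20 and 30 min. CAM1 was at -0.62 and -0.29 at 0 min, -0.20 and -0.63 at 10 min, -0.35 and -0.26 at 20 min and -0.50 and -0.50 at 30 min in Mot1-aa. WT-aa had -0.27 and 0.07 at 0 min, -0.03 and -0.02 at 10 min, -0.10 and -0.06 at 20 min and -0.16 and -0.26 at 30 min. Mot1-aa was below WT-aa for CAM1 at 0 min already, within culture 1 and within culture 2, and Mot1-aa minus WT-aa was -0.36 with an adjusted p of 0.304. The depletion effects at 30 min were 0.32 ± 0.20 (SE) for TEF4 and 0.07 ± 0.21 (SE) for CAM1, with adjusted p of 0.28 and 0.834.

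EFT2, the translocase eEF2, was at 0.06 and 0.21 at 0 min, 0.15 and 0.06 at 10 min, -0.02 and 0.15 at 20 min and -0.21 and -0.12 at 30 min in Mot1-aa. Its WT-aa values were -0.17 and 0.17 at 0 min, -0.05 and 0.07 at 10 min, -0.03 and 0.09 at 20 min and -0.09 and -0.01 at 30 min. The Mot1-aa pair at 30 min was below the other Mot1-aa arrays and below the WT-aa pair at that time. EFT2 fell within Mot1-aa, 30 against 0 min, by 0.30 (adjusted p 0.0168), and its depletion effect was -0.25 (adjusted p 0.167). EFB1, the catalytic eEF1Bα, had a depletion effect of -0.31 (adjusted p 0.0881) and fell within Mot1-aa by 0.42 (adjusted p 0.00269). YEF3, the fungal factor eEF3, had -0.27 and HYP2, the hypusine-bearing eIF5A, had -0.17. All 7 elongation factors had a lower effect at 30 than at 20 min, as did 52.4% of all genes, but none of these differences passed, as was the case for all 5315 genes.

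SUP35 encodes the release factor eRF3, known for its prion form, and works with eRF1 from SUP45. SUP35 values were 0.06 and -0.17 at 0 min, -0.10 and -0.40 at 10 min, -0.31 and -0.53 at 20 min and -0.48 and -0.73 at 30 min in Mot1-aa. They were 0.11 and -0.04 at 0 min, 0.11 and -0.13 at 10 min, 0.09 and -0.12 at 20 min and 0.08 and -0.18 at 30 min in WT-aa. Mot1-aa values went down at each step within either culture, and both cultures were below all WT-aa arrays from 20 min on. The effect was -0.31 ± 0.08 (SE) at 20 min (adjusted p 0.0458) and -0.47 ± 0.08 (SE) at 30 min (adjusted p 0.00387), with -0.52 in culture 1 and -0.41 in culture 2. SUP45 had -0.04 ± 0.22 (SE) at 30 min, with -0.27 in culture 1 and 0.20 in culture 2, and its interval of -0.54 to 0.46 includes the value of SUP35.

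**Figure D3:**
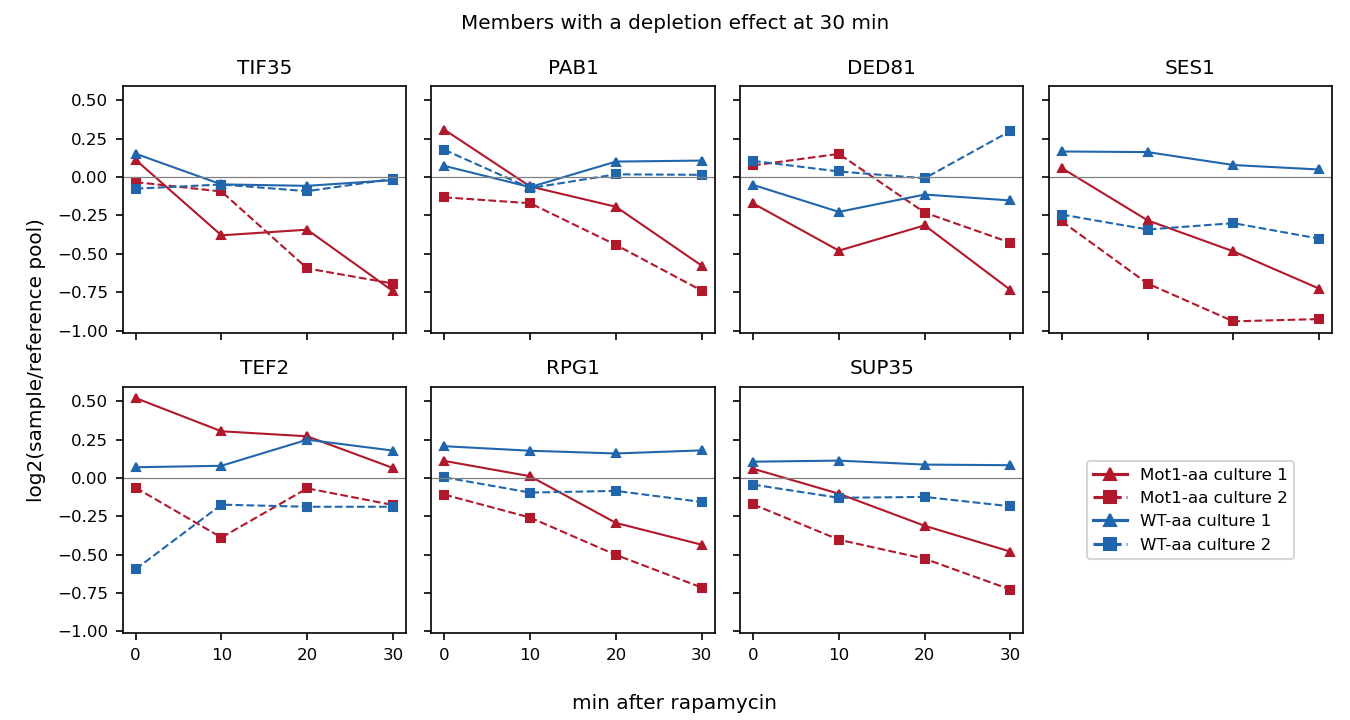
Time course of log2(sample/reference pool) for the 7 genes that fell, each line 1 culture (Mot1-aa red, WT-aa blue; triangles and solid lines culture 1, squares and dashed lines culture 2) over 0, 10, 20 and 30 min. RPG1 and SUP35 go down at each step in both Mot1-aa cultures and SES1 does so up to 20 min, over flatter WT-aa lines, DED81 parts at 30 min, and TEF2 shows overlapping strains at 30 min, where its Mot1-aa values are 0.06 and -0.18.

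Among the tRNA synthetases, SES1, which charges tRNA with serine, gave 0.06 and -0.29 at 0 min, -0.28 and -0.69 at 10 min, -0.48 and -0.94 at 20 min and -0.73 and -0.92 at 30 min in Mot1-aa. WT-aa gave 0.17 and -0.24 at 0 min, 0.16 and -0.34 at 10 min, 0.08 and -0.30 at 20 min and 0.05 and -0.40 at 30 min. Both cultures started near WT-aa of the same culture number and then dropped below every WT-aa array by 20 min. The effect was -0.52 ± 0.11 (SE) at 20 min (adjusted p 0.0151) and -0.57 ± 0.11 (SE) at 30 min (adjusted p 0.00457), with -0.67 in culture 1 and -0.48 in culture 2. From the authors' deposited ratios it was -0.39 at 30 min and did not pass. SES1 also had the lowest value of any synthetase in Mot1-aa, 30 against 0 min (-0.71, adjusted p 4.79e-05).

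DED81, which charges tRNA with asparagine, gave -0.17 and 0.08 at 0 min, -0.48 and 0.15 at 10 min, -0.31 and -0.23 at 20 min and -0.73 and -0.43 at 30 min in Mot1-aa. WT-aa gave -0.05 and 0.11 at 0 min, -0.23 and 0.04 at 10 min, -0.11 and -0.01 at 20 min and -0.15 and 0.30 at 30 min. At 30 min both Mot1-aa cultures were below every WT-aa array, while at 10 min the Mot1-aa pair straddled the WT-aa pair of that time. The effect was -0.58 ± 0.17 (SE) at 30 min (adjusted p 0.0343) and -0.14 at 20 min (adjusted p 0.723). Culture 2 of WT-aa at 30 min, at 0.30, was the highest DED81 value of all arrays, and the call was kept in 8 of the 16 fits that left out 1 array.

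DPS1, which charges tRNA with aspartate, is named here after its values were seen, because it alone was called higher in Mot1-aa at 30 against 0 min. It gave 0.06 and 0.23 at 0 min, 0.29 and 0.27 at 10 min, 0.38 and 0.68 at 20 min and 0.43 and 0.69 at 30 min in Mot1-aa. WT-aa gave -0.25 and 0.28 at 0 min, -0.02 and 0.13 at 10 min, -0.09 and 0.04 at 20 min and -0.19 and 0.17 at 30 min. Both Mot1-aa cultures at 20 and 30 min were above every WT-aa array. DPS1 rose within Mot1-aa by 0.42 ± 0.11 (SE) (adjusted p 0.012), and its depletion effect of 0.45 ± 0.16 (SE) did not pass (adjusted p 0.0664). The other positive effects were 0.35 for KRS1, 0.31 for WRS1, 0.22 for GLN4 and 0.17 for CDC60, the enzymes for lysine, tryptophan, glutamine and leucine, and none passed. Mot1-aa exceeded WT-aa in GLN4 at 30 min by 0.52 (adjusted p 6.68e-04), beside 0.31 at 0 min (adjusted p 0.115).

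TYS1 and VAS1, for tyrosine and valine, had effects of -0.31 and -0.28 and fell within Mot1-aa at 30 against 0 min, by 0.47 (adjusted p 0.00643) and 0.33 (adjusted p 0.0338). ALA1, for alanine, fell by 0.38 on the log2 scale in that comparison (adjusted p 0.0173). Its WT-aa change was -0.23, so its depletion effect was -0.15. The remaining enzymes had depletion effects of -0.22 for ILS1, -0.21 for MES1, -0.12 for GUS1, -0.11 for GRS1, -0.07 for FRS2, -0.03 for THS1, -0.01 for HTS1 and -0.01 for FRS1. FRS1 and FRS2 encode both subunits of the phenylalanine enzyme, and their 95% intervals were -0.48 to 0.47 and -0.32 to 0.18.

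At 20 min 3 of the 51 genes fell (RPG1, SUP35 and SES1, 5.88%) and 0 rose, where over all genes 1.03% fell and 7.06% rose. The number that fell was 0 when culture 2 of Mot1-aa or either culture of WT-aa was left out at 20 min, 5 (and 1 rose) without either array of Mot1-aa at 10 min, and 1 without any other array, beside 1 that rose without culture 1 of WT-aa at 0 min. The median effect at 20 min was -0.11 for the factors and 0.0071 for the synthetases. At 10 min limma called none of the 51 genes and 0% of all genes, 2 of the 51 (3.92%) and 4.23% of all genes had an unadjusted p under 0.05, and limma with array weights also called 0. The cultures did not share a direction at 10 min: the median effect of the 51 genes was 0.02 in culture 1 and -0.18 in culture 2, and Mot1-aa 10 min culture 2 had 40 of the 51 values below 0 with a median of -0.36. The difference between the effects at 30 and 20 min passed for 0 of the 51 genes by limma, with 4 (7.84%) at an unadjusted p under 0.05, beside 5.57% of all genes.

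**Figure D4:**
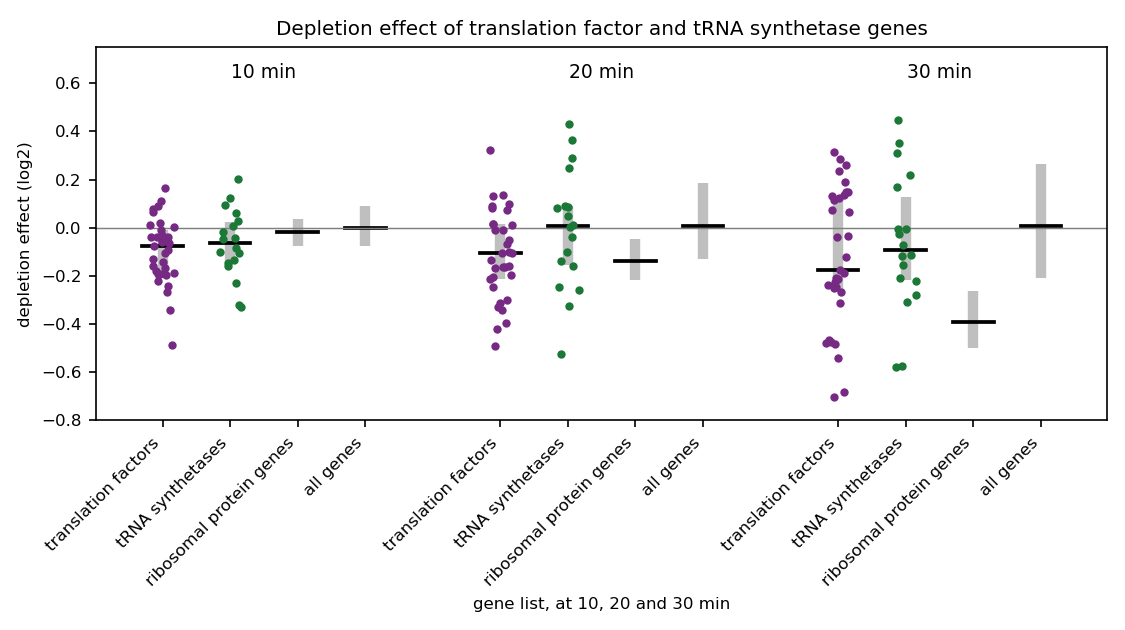
Depletion effect (log2) at 10, 20 and 30 min, with each point 1 translation factor or tRNA synthetase gene, the black line the median and the grey bar the range between the quartiles of each list, beside ribosomal protein genes and all genes. At 30 min the medians are -0.17 for the factors, -0.09 for the synthetases, -0.39 for the ribosomal protein genes and 0.01 for all genes.

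The changes inside each strain show what the depletion effect is made of, and all share the arrays at 0 min of that strain. In Mot1-aa, 30 against 0 min, 19 of the 51 genes fell (37.3%) and 1 rose (1.96%), where over all genes 19% fell and 22.9% rose. The 19 were 14 factors and 5 synthetases. They included 4 of the 6 genes of eIF4 and poly(A)-binding protein (PAB1, TIF4631, CDC33 and TIF3) and 4 of 6 eIF3 genes, while none of the 5 eIF2B genes passed. The median was -0.28 for the factors and -0.15 for the synthetases, and 42 of 51 values were negative, beside 49.1% of all genes. The 20 calls became 11 without culture 1 of Mot1-aa at 30 min and 31 without either array of Mot1-aa at 10 min. At 20 against 0 min 11 fell (21.6%) and 1, DPS1, rose, beside 7.47% and 16.4% of all genes.

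WT-aa received the same rapamycin and has no FRB tag. In WT-aa limma called 0 of the 51 at 10, 20 or 30 min, where 0.414%, 0.113% and 0.395% of all genes passed in either direction. An unadjusted p under 0.05 was reached by 0, 1 and 3 of the 51 (0%, 1.96% and 5.88%), beside 7.51%, 4.57% and 8.67% of all genes. At 30 min 46 of the 51 WT-aa changes were negative, beside 49.3% of all genes, with a median of -0.12, made up of -0.03 in culture 1 and -0.21 in culture 2. The culture 2 arrays of WT-aa at 0 and 30 min enter every depletion effect at 30 min.

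Set directly against WT-aa at 30 min, Mot1-aa had 15 of the 51 genes lower (29.4%) and 2 higher (DPS1 and GLN4, 3.92%), beside 24.3% and 24.9% of all genes. PAB1, TIF35, RPG1, SUP35, DED81 and SES1 were among the 15, with differences of -0.72 for PAB1, -0.70 for TIF35, -0.59 for RPG1, -0.55 for SUP35, -0.66 for DED81 and -0.65 for SES1, and so was CDC33 (-0.65, adjusted p 0.00321). Before rapamycin limma called 0 of the 51 genes between the strains, while 2.69% of all genes passed, and 5 of the 51 (9.8%) had an unadjusted p under 0.05, beside 14.6% of all genes.

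The ribosomal protein genes, the other large part of the protein synthesis machinery, give the context: of 125, 31 fell (24.8%) and 0 rose in the depletion effect at 30 min, with a median of -0.39, where 7.51% of all genes fell and 13.6% rose. Of 23 regulators and accessory factors of translation 2 fell (8.7%, near the 7.51% of all genes) and 0 rose. They were TMA22, part of a dimer that recycles the small subunit, at -0.40 (adjusted p 0.0463), and SRO9, an RNA-binding protein with a La motif, at -0.34 (adjusted p 0.0453). None of 5 enzymes of the diphthamide and hypusine modifications passed, nor did the cytosolic synthetases YDR341C and YHR020W, at -0.26 and -0.10. Of 20 mitochondrial translation factors and synthetases 3 rose (15%, near the 13.6% of all genes) and 0 fell, with a median of 0.15. DIA4, the likely mitochondrial enzyme for serine, rose by 0.92 ± 0.10 (SE) (adjusted p 2.54e-04), MST1, for threonine, by 0.61 (adjusted p 0.0203) and MEF2, a mitochondrial elongation factor, by 0.53 (adjusted p 0.0199).

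DIA4 and SES1 serve the same amino acid in different compartments. DIA4 gave 0.17 and 0.25 at 0 min, 0.48 and 0.49 at 10 min, 0.96 and 0.97 at 20 min and 1.32 and 1.26 at 30 min in Mot1-aa. In WT-aa DIA4 gave -0.05 and -0.13 at 0 min, 0.09 and -0.02 at 10 min, 0.08 and -0.04 at 20 min and 0.13 and 0.01 at 30 min. Its Mot1-aa values were above WT-aa at 0 min already, by 0.30 (adjusted p 0.048), and higher at each later time, where SES1 was lower at 10, 20 and 30 min than at 0 min in both cultures. The cytosolic and mitochondrial threonine enzymes, THS1 and MST1, had depletion effects at 30 min of -0.03 and 0.61. Other such pairs did not share 1 pattern. The effects had opposite signs for aspartate (DPS1 0.45, MSD1 -0.25), methionine (MES1 -0.21, MSM1 0.21) and asparagine (DED81 -0.58, SLM5 0.16). So did those for isoleucine (ILS1 -0.22, ISM1 0.24) and tryptophan (WRS1 0.31, MSW1 -0.02). Both enzymes went the same way for lysine (KRS1 0.35, MSK1 0.39), tyrosine (TYS1 -0.31, MSY1 -0.33) and leucine (CDC60 0.17, NAM2 0.30). Signs were also shared for glutamate (GUS1 -0.12, MSE1 -0.09) and phenylalanine (FRS1 -0.01, FRS2 -0.07, MSF1 -0.25). Of the genes in these other pairs only DED81 passed, and a difference between the compartments was not tested.

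All these directions are relative to the other genes of an array. Scaled on the external control spots, which lay only 1.15 to 1.50 times over background, the median depletion effect of all genes at 30 min was 0.27, of the factors 0.21 and of the synthetases 0.24. Relative to all genes the factors were then at -0.06 and the synthetases at -0.03, and 0 of the 51 passed. The 7 genes that fell kept a negative sign on that scale, between -0.30 and -0.02. With each array centred on its median and no loess step, the factor median was 0.0018 at 20 min and -0.13 at 30 min.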

How the data were processed

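Newly made RNA of 16 yeast cultures was measured on two-colour arrays. The deposited scanner tables hold spot intensity values per channel, per the file headers, without background subtraction. The authors' deposited table holds log2(Cy5/Cy3) for every spot. The sources used here do not give its normalization. It served as an alternative, turned to sample over reference, with column medians between -0.0069 and 0.0216. Ratios here came from the scanner values with limma 3.58.1 in R 4.3.3: normexp (offset 50), loess within each array, the mean of duplicate spots and of the probes of a gene, 5315 genes. One model was fitted to all 16 arrays, with 8 groups and a culture term that is also the dye term, which leaves 7 residual degrees of freedom. The script was tested on simulated data. Alternatives changed the culture term, the background step, the scaling, array weights, dim genes and single arrays. Culture numbers, which the labels tie to the hybridization, acted as the replicate block: culture differences of 28 pairs of groups had a median r of 0.620 (range -0.356 to 0.777, 25 over 0.1). The sources used here do not say whether the times of a strain share a culture, and arrays of a strain were treated as independent. Of the 51 genes, those past the threshold in the depletion effect at 30 min and the paralogue pairs are given with every array by rule. DPS1 and, outside the 51, DIA4 were added after their values were seen. The genes and lists were chosen with earlier results of these data known. The number of arrays limits the precision. Gene, promoter and protein sequences were not used here.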

Additional observations from a re-analysis of the deposited data

How the results depend on the processing

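The 7 calls at 30 min became 2 without the culture term (no replicate block), 0 on external control spots and 14 without the Mot1-aa 10 min group, a setting chosen after seeing the data. With the authors' ratios the count was again 7, but 6 fell and 1 rose. The genes were not all the same, since RPG1, SES1 and TEF2 did not pass there. With array weights 8 fell and 1 rose. The range was 3 to 14 when 1 array was left out. At 20 min the 3 calls became 0 without the replicate block, 1 with a replicate block per strain, 0 with median centring, 0 on external control spots, 0 with the authors' ratios, 5 with array weights and 6 without the Mot1-aa 10 min group, and 0 to 6 when 1 array was left out. The 20 calls of Mot1-aa 30 against 0 min became 12 without the replicate block, 0 on external control spots, 31 without the Mot1-aa 10 min group, and 11 to 31 when 1 array was left out. WT-aa at 30 min had 0 calls, 1 without the Mot1-aa 10 min group, and 0 to 1 when 1 array was left out. The strain difference at 0 min had 0, 2 without that group, and 0 to 2. The factor median of -0.17 at 30 min was 0.21 on external control spots. The synthetase median of -0.09 was 0.24 there, -0.018 with the authors' ratios, and -0.13 to -0.022 when 1 array was left out. The external control scale moved the median of all genes to 0.54 at 20 min and 0.27 at 30 min and compares arrays on spots close to background. Without the block, the spread between cultures counts as error. The cause of the other changes was not tested. The 10 min counts stayed at 0 under each alternative run, and none of the 51 genes that passed in either fit changed sign at 30 min. The promoter description was not run.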
